A study of Mus musculus with 3 samples.

Results

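The MYC and MAX network is a family of transcription factors that bind DNA as pairs through a basic helix-loop-helix leucine zipper. Its 10 genes measured here are Myc, Mycn and Mycl, their shared partner Max, the repressor genes Mxd1, Mxd3, Mxd4, Mxi1 and Mnt, and Mlx. They were taken by name from a fixed list, and all 10 were among the 55536 mouse genes of the table, of which 22028 are protein-coding. PolyA-selected RNA had been sequenced from activated regulatory T cells, CD4 T cells that restrain immune responses. The source was adult male mouse, of 4 months and of the strain Foxp3CreERT2 x Rosa26YFP. Foxp3CreERT2 places a tamoxifen-inducible Cre recombinase under the Foxp3 gene and Rosa26YFP is a Cre reporter. The labels trace the cells to bone marrow haematopoietic cells and do not say whether tamoxifen was given, nor how the cells were activated or sorted. The 3 libraries are labelled technical replicates 1, 2 and 3 of 1 biological replicate, so there is 1 group, no control and no contrast between conditions. They held between 6667391 (replicate 3) and 10981924 (replicate 1) expected counts, so precision was lowest in replicate 3.

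As background, MYC proteins activate genes for ribosomes, nucleotide supply and metabolism once paired with MAX at the DNA sequence CACGTG, called the E-box. MXD proteins (MXI1 is one of them) and MNT also pair with MAX, bind the same sequence and recruit SIN3 and histone deacetylases to repress it, so activators and repressors compete for one partner. MLX is a MAX-like protein that pairs with the nutrient-sensing factors MLXIP and MLXIPL and also with MXD1, MXD4 and MNT. In T cells Myc is known to be induced on activation and to drive growth.

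Of the 3 MYC paralogs, Myc alone was detected. In the main quantification its range over libraries overlapped that of Mxd4 and lay above that of every other member. Levels are in TPM, transcript numbers relative to a fixed total, which are scaled by length and can be compared between genes. Detection, meaning 1 TPM or more in each library, was met by 8 of the 10 members, against 45.3% of all protein-coding genes. Sorted by mean TPM the order was Mxd4, Myc, Max, Mlx, Mxd1, Mxd3, Mnt and Mxi1, with Mycn and Mycl listed at 0. The ranges over libraries overlapped for the neighbours Mxd4 and Myc, Max and Mlx, Mxd1 and Mxd3, and Mnt and Mxi1, and did not overlap for the other neighbours among the 8 detected genes. The median log2(TPM + 1) of the 10 members was 4.00 ± 0.28 (SD, n = 3), beside 0.70 ± 0.07 for all protein-coding genes and 4.42 ± 0.07 for the 9988 that were detected.

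**Figure D1:**
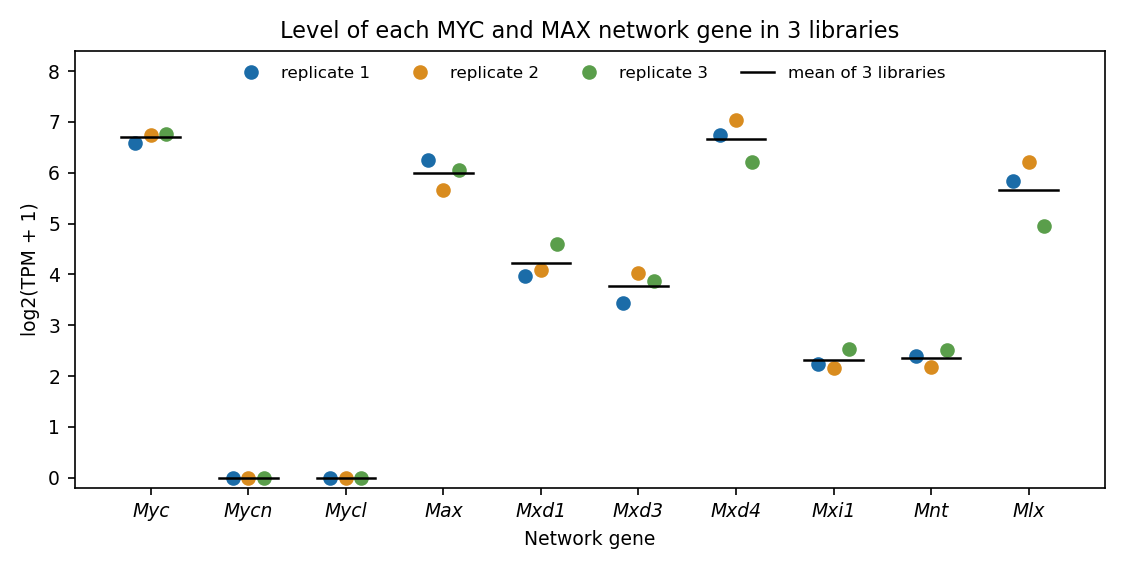
Level of the 10 network genes, with the gene on the x axis and log2(TPM + 1) on the y axis; points are the 3 libraries and bars their mean. Mycn and Mycl sit at 0, Myc has nearly the same level in each library (95.6 to 107.4 TPM), and Mlx and Mxd4 have their lowest point in replicate 3.

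The sequences below show places where transcripts of Myc, Max and Mlx encode different protein ends or segments, and they are referred to again beside the transcript values. All were read 5′ to 3′ from the coding sequences of the M21 gene models on GRCm38 (mm10). The Myc stretch shows both annotated start codons in capitals, a CTG and the ATG that follows 45 bases (15 codons) downstream in the spliced RNA. The genome span from the first to the last capital, chr15:61985922-61987524 on the plus strand, holds an intron. The Max pair shows the first coding bases of its main transcripts, with the 27 bases (9 codons) that only Max-202 holds in capitals. Those bases form a whole exon at chr12:76961263-76961289 on the minus strand and follow coding base 36 of the shared start. The Mlx pair shows in capitals the 90 bases (30 codons) that Mlx-202 holds and Mlx-203 skips, a whole exon at chr11:101088236-101088325 on the plus strand.
Myc: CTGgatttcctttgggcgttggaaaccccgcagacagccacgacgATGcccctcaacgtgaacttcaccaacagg
Max-202: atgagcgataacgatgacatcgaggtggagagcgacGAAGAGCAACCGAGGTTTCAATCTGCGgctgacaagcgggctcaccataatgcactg
Max-201: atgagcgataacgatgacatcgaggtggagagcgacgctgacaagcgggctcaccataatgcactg
Mlx-202: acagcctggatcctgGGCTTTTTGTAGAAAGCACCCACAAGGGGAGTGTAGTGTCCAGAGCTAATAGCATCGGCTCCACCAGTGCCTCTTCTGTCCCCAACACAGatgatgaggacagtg
Mlx-203: acagcctggatcctgatgatgaggacagtg

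Because the members act at the E-box, the start regions of their own genes were searched for it. Windows of 300 bases, 250 before and 50 after each RefSeq start on GRCm38.p6, were read for the 9 members other than Myc (11 windows). CACGTG, which is its own reverse complement, was present in 4 of the 11 windows, those of Mxd4, Mnt, Mlx and Max, beside 7.15% of all 32851 windows in the table. The matches are shown in capitals within 30 bases on the strand of the gene. Their first base lies 219 bases before the start in Mxd4 (chr5:34187912-34187941, minus strand), 123 before in Mnt (chr11:74830789-74830818, plus), 40 before in Mlx (chr11:101087238-101087267, plus) and 3 before in Max (chr12:76962234-76962263, minus). A match describes the sequence only, and binding was not measured.
Mxd4: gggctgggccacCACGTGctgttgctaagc
Mnt: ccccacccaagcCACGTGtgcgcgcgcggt
Mlx: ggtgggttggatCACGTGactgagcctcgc
Max: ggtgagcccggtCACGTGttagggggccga

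Myc (ENSMUSG00000022346.15, chr15:61985391-61990374, plus strand), the growth-promoting activator of the network, was at 95.6, 106.5 and 107.4 TPM in replicates 1, 2 and 3, or 103.2 ± 6.57 TPM (SD, n = 3). These values rest on 1684, 1541 and 1158 expected counts. The libraries were close together: the coefficient of variation (CV) of TPM was 6.37%, and 9.21% of detected protein-coding genes had a CV at or below it, with a median of 18.1%. A mean TPM at or above that of Myc was reached by 13.0% of detected protein-coding genes. After scaling by trimmed mean of M-values (TMM), Myc had 157.5, 160.3 and 167.5 CPM (counts scaled to a common depth), a highest-to-lowest ratio of 1.06 with an exact 95% interval of 0.986 to 1.15. Here and below, the highest and lowest library were picked by their values. The interval does not allow for that choice, so it leaves out equal levels too often. The adjusted p of the chi-square test over the 3 libraries was 0.323, so Myc did not differ by more than sampling noise. It did pass the threshold when libraries were scaled by total counts (adjusted p = 0.00811) and in the older-annotation counts (adjusted p = 0.000428), within a range over all alternatives of 0.000428 to 1.0.

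Mycn (ENSMUSG00000037169.15, chr12:12936093-12941914, minus strand) and Mycl (ENSMUSG00000028654.13, chr4:122995652-123002485, plus strand) encode the neural and lung-type paralogs of MYC. Both were listed at 0 in every library of the main table and of the older-annotation counts. In the second quantification Mycn had 0, 0 and 1 estimated counts and Mycl had 2, 0 and 2. A count of 0 allows up to 3 counts in a library, or 0.273, 0.309 and 0.450 CPM in replicates 1, 2 and 3, before length is considered. Expression of either paralog was therefore not detectable above those limits.

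Among the Myc transcripts as listed, the same one had the largest share in each library. Myc-202 held 39.0%, 37.6% and 42.6% of the gene's TPM in replicates 1, 2 and 3, and Myc-204 held 21.1%, 24.5% and 15.6%. In the second table these shares were 43.3%, 43.5% and 56.6% for Myc-202 and 16.4%, 20.9% and 9.30% for Myc-204, with replicate 3 highest for the former and lowest for the latter in both tables. Myc-201 and Myc-205 have the same RNA sequence and differ only in the annotated start, the CTG for Myc-201 (1362 coding bases) and the ATG for Myc-205 (1317 coding bases). Reads cannot separate them, and the deposited values give each the same share, which summed to 39.3%, 37.9% and 40.2%. Taken as 1 RNA, they stood slightly above Myc-202 in replicates 1 and 2 and below it in replicate 3. Their summed share of expected counts was 43.1%, 41.7% and 44.0%, above Myc-202 in each library. In the second table their TPM share was 36.0%, 31.9% and 28.5%, below Myc-202 in each. Which RNA leads therefore depends on the measure. Because reads cannot separate the pair, whether the 15 codons upstream of the ATG are used is not resolved by these data.

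Max (ENSMUSG00000059436.13, chr12:76937269-76962201, minus strand), the partner of MYC, MXD and MNT, was at 74.8, 49.7 and 65.5 TPM, or 63.3 ± 12.7 TPM (SD, n = 3). It rests on 1020, 561 and 509 expected counts. Replicate 1 was highest and replicate 2 lowest, and every library stood below every Myc value. The scaled CPM of 95.4, 58.4 and 73.6 had a highest-to-lowest ratio of 1.64 (exact 95% interval 1.47 to 1.82), with an adjusted p of 1.23e-19 by chi-square. The ratio of Myc to Max TPM was 1.28, 2.15 and 1.64.

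Max-201 and Max-202, the transcripts without and with the 27-base exon, made up most of the gene. Max-201 held 56.0%, 47.3% and 64.7% of Max TPM and Max-202 held 29.6%, 37.1% and 12.8%. As a share of these 2 transcripts, Max-202 was 34.6%, 43.9% and 16.6% in the main table and 43.8%, 41.3% and 26.2% in the second. Replicate 3 was lowest in both quantifications, and the order of the other libraries differed. The expected counts of Max-202 were 349.7, 239.3 and 81.0, with deposited posterior SDs of 62.9, 39.0 and 28.8 counts, so the estimate was least certain, relative to its size, in replicate 3. Max-206, a 203-base transcript marked for nonsense-mediated decay and just under the 10% limit for naming, took 10.8%, 6.07% and 11.3% of Max TPM from 3, 1 and 2 counts. Its share therefore rests on very few reads.

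Among the repressor genes, Mxd4 was far above the rest in the main table. Mxd4 (ENSMUSG00000037235.13, chr5:34173883-34187720, minus strand), which encodes a MAX partner of differentiating and resting cells, was at 106.0, 131.1 and 73.5 TPM, or 103.5 ± 28.9 TPM (SD, n = 3). It exceeded Myc in 2 of 3 libraries and lay below it in replicate 3, and in the second quantification it exceeded Myc in replicate 2 only, with ratios of 0.931, 1.07 and 0.588. Its 2601, 2558 and 1058 expected counts gave 243.4, 266.2 and 153.0 scaled CPM. Replicate 3 was lowest, with a highest-to-lowest ratio of 1.74 (exact 95% interval 1.62 to 1.87) and an adjusted p of 7.02e-52 by chi-square.

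The standing of Mxd4 depended on how reads were counted. Mxd4-201, its main coding transcript, held 59.9%, 58.8% and 54.5% of the TPM. It has 3872 bases, of which 627 (16.2%) code and 3108 follow the coding sequence. Mxd4-203, a 787-base noncoding transcript, held 32.7%, 35.3% and 36.4% of the TPM from 7.25%, 8.18% and 8.53% of the counts. In the second table its TPM share was lower, at 14.0%, 21.6% and 22.4%, and that of Mxd4-201 was 77.2%, 71.9% and 67.1%. Of the Mxd4-203 bases, 783 are shared with Mxd4-201 and all of those lie after the coding sequence. Summed over coding transcripts only, Mxd4 was at 63.5, 77.1 and 40.03 TPM. The counts on the older M4 annotation are inferred, and not known, to track coding bases. In them Mxd4 had 145, 84 and 49 counts where Myc had 2243, 2125 and 1666. Per coding base, Mxd4 was then at 15.7 ± 4.98 TPM and Myc at 166 ± 14.7 TPM (SD, n = 3), a ratio of 0.140, 0.0859 and 0.0639. The ratio of this level per coding base to the main level was 0.151 for Mxd4 against a median of 1.31 over 9890 detected protein-coding genes, of which 2.16% had a lower ratio. By the same ratio Mxd3 lay at the other end, at 2.29, with 95.8% of those genes lower. Mnt and Mxi1 were at 0.489 and 0.639, with 6.92% and 11.2% lower. The other detected members ran from 0.970 (Mxd1) to 1.61 (Myc). Read positions along Mxd4 were not analysed here.

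**Figure D2:**
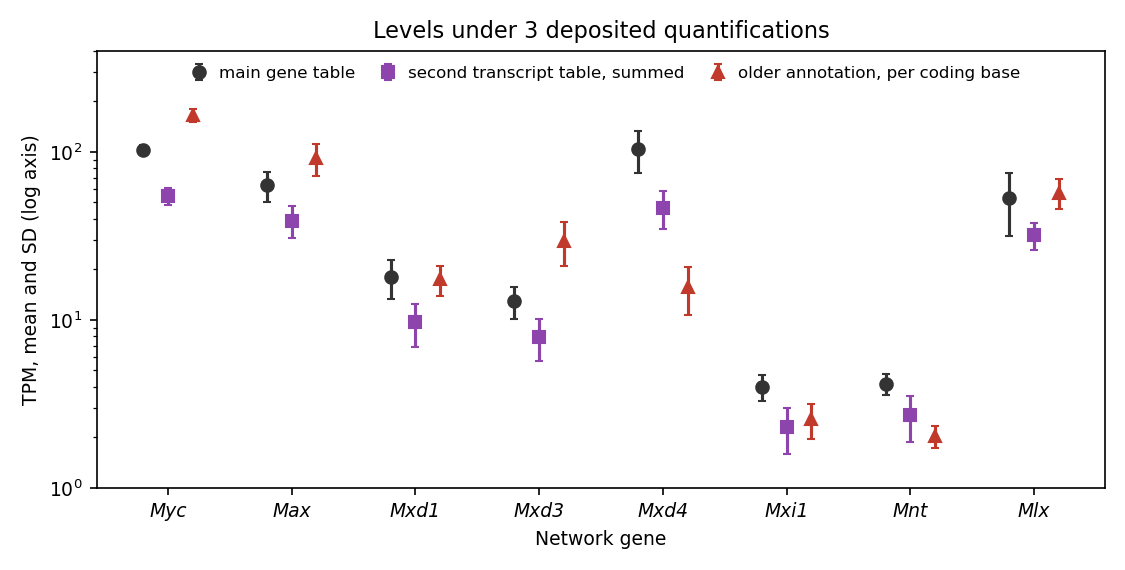
Mean level and SD over 3 libraries of the 8 detected members under 3 deposited quantifications, with the gene on the x axis and TPM on a log y axis. The second table gives lower values than the main one and places Myc above Mxd4, and the older-annotation counts per coding base put Mxd4 at 15.7 TPM, below Myc (166), Max (91.5), Mlx (57.2), Mxd3 (29.6) and Mxd1 (17.4).

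Mxd1 (ENSMUSG00000001156.9, chr6:86647042-86669161, minus strand), the founding MXD repressor, was at 14.6, 16.03 and 23.3 TPM, or 18.0 ± 4.69 TPM (SD, n = 3). Replicate 3 was highest, at 74.8 scaled CPM against 51.8 and 49.5, a highest-to-lowest ratio of 1.51 (exact 95% interval 1.33 to 1.71; adjusted p = 1.95e-11 by chi-square). That call rested on replicate 3: without it the adjusted p was 0.546. The coding transcript Mxd1-201 held 88.3%, 81.7% and 79.8% of the TPM. The intron-retaining Mxd1-204 held 11.7%, 13.7% and 20.2%, also highest in replicate 3.

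Mxd3 (ENSMUSG00000021485.14, chr13:55325168-55329823, minus strand), an MXD gene linked to proliferating cells, was at 9.76, 15.3 and 13.7 TPM, or 12.9 ± 2.86 TPM (SD, n = 3). Replicate 1 was lowest, the highest-to-lowest ratio of scaled counts was 1.45 (exact 95% interval 1.11 to 1.90) and the adjusted p was 0.0257 by chi-square. It was 0.587 without replicate 1 and 0.0969 without replicate 2. Mxd3-201, the coding transcript, held 94.8%, 93.7% and 97.0% of the TPM. Mxd3 overlaps Prelid1 on the opposite strand, which was at 245.6, 273.3 and 276.2 TPM, and the labels and headers do not say whether counting used the strand. The Mxd3 level, and its place above Mxd4 in older-annotation counts per coding base, are uncertain to that extent.

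Mxi1 (ENSMUSG00000025025.14, chr19:53310518-53375810, plus strand) and Mnt (ENSMUSG00000000282.12, chr11:74830920-74845725, plus strand) were the lowest of the detected members. Mxi1, the MXD gene also known as Mxd2, was at 3.72, 3.46 and 4.81 TPM, or 4.00 ± 0.716 TPM (SD, n = 3), from 113, 97 and 88 counts. Its highest-to-lowest ratio of scaled counts was 1.26 with an exact 95% interval of 0.934 to 1.70, and its adjusted p was 0.301, so the libraries did not differ beyond sampling noise at this depth. Mnt, the most widely expressed MAX-binding repressor, was at 4.23, 3.51 and 4.71 TPM, or 4.15 ± 0.604 TPM (SD, n = 3), from 167, 114 and 113 counts. Its ratio was 1.38 (exact 95% interval 1.05 to 1.80) and its adjusted p 0.0431, close to the threshold of 0.05. The call was lost without the filter on low counts (adjusted p = 0.0781), without replicate 2 (0.777), without replicate 3 (0.0569) and in the older-annotation counts (0.306).

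Transcript structure differed between this pair. Mnt-201 held 100% of Mnt in all 3 libraries of the main table. For Mxi1 the coding transcript Mxi1-202 led in the main table with 49.7%, 68.9% and 51.7% of TPM. Mxi1-203 held 40.9% in replicate 1 and was listed at 0 in the others, whereas Mxi1-201 was listed at 0 in replicate 1 and held 9.63% and 26.1% in replicates 2 and 3. The intron-retaining Mxi1-207 held 9.47%, 21.5% and 12.2%. These shares are poorly fixed. Mxi1-203 had 29.4 counts in replicate 1, with a posterior mean of 16.1 and SD of 9.45. In replicate 1 of the second table Mxi1-203 held 14.7% of TPM. There Mxi1-201 held 39.1%, slightly above Mxi1-202 at 38.3%.

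Mlx (ENSMUSG00000017801.15, chr11:101087277-101092207, plus strand), the gene for the MAX-like partner, was at 56.1, 73.0 and 30.1 TPM, or 53.1 ± 21.6 TPM (SD, n = 3). Its CV of 40.7% was the widest of the 10 members in main-table TPM, though not in scaled CPM (23.3%, below Mxd4, Max and Mxd1) or in the other quantifications, and 9.55% of detected protein-coding genes had a CV at or above it. The scaled CPM of 57.7, 55.8 and 36.7 had a narrower highest-to-lowest ratio of 1.57 (exact 95% interval 1.36 to 1.83), with an adjusted p of 7.51e-09 by chi-square and of 0.62 without replicate 3. Replicate 3 was lowest on each scale. Mlx overlaps Psmc3ip on the opposite strand, which was at 9.46 to 10.5 TPM.

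Part of the TPM spread of Mlx lay in short noncoding transcripts. Mlx-204 (618 bases) and Mlx-206 (679 bases) together held 36.4%, 53.5% and 0.970% of the gene's TPM from 13.3%, 25.2% and 0.320% of its counts. Summed over its coding transcripts alone, Mlx was at 35.7, 33.9 and 29.8 TPM, or 33.2 ± 3.02 TPM (SD, n = 3), still lowest in replicate 3. The second quantification gave these noncoding transcripts 50.6%, 50.1% and 39.2%, so the near absence in replicate 3 was not seen there.

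The estimated shares of Mlx transcripts with and without the 90-base exon differed between libraries. Reads over the exon itself were not counted. Mlx-202, which holds it, had 38.2%, 18.7% and 36.9% of Mlx TPM. Mlx-203, which skips it, had 5.27%, 12.03% and 59.1%, and Mlx-201, which has 162 more coding bases (54 codons) than Mlx-202, had 19.8%, 13.7% and 0%. Of these 3 coding transcripts, Mlx-203 made up 8.33%, 27.0% and 61.6% in the main table and 4.63%, 15.1% and 87.8% in the second, so replicate 3 was highest and replicate 1 lowest in both. The posterior SDs of the Mlx-203 count were 30.2, 40.5 and 39.5 beside counts of 41.2, 100.9 and 151.6, so these shares are imprecise. In the second table Mlx-202 held 28.5%, 28.8% and practically none of the TPM, so its 36.9% in replicate 3 was not seen there.

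**Figure D3:**
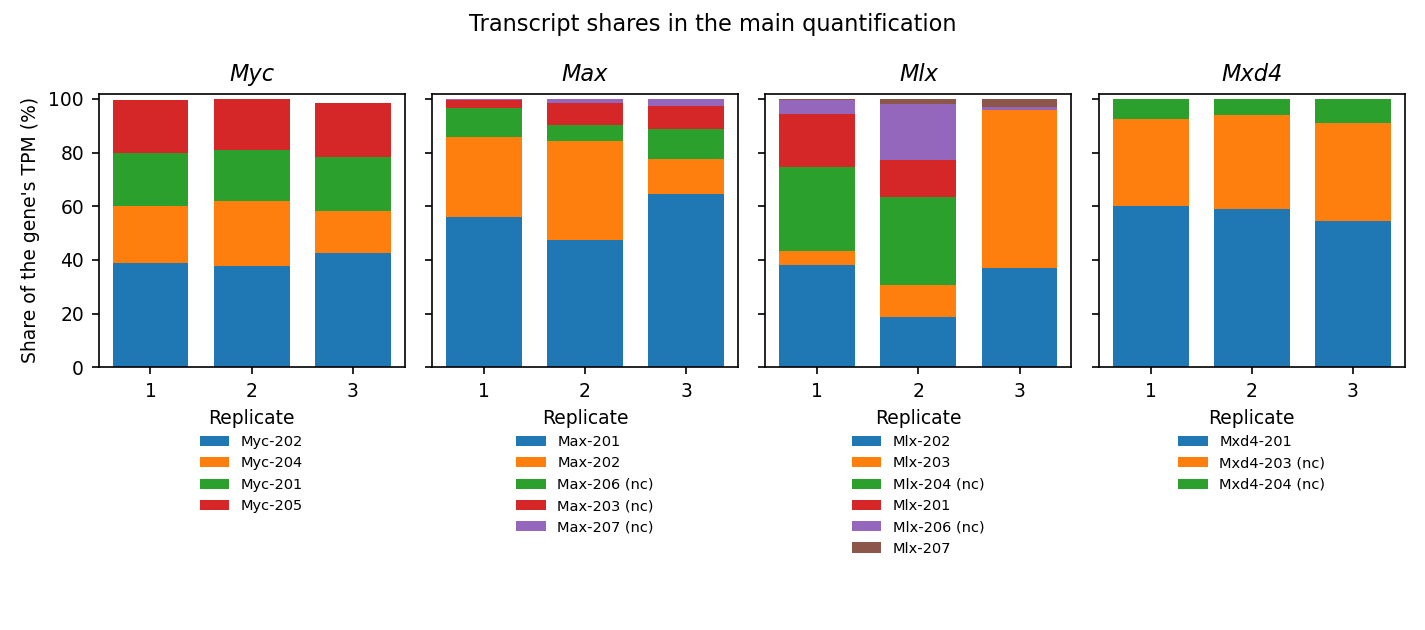
Transcripts of Myc, Max, Mlx and Mxd4 by replicate on the x axis, with each transcript's share of its gene's TPM in percent on the y axis; (nc) marks transcripts not annotated as protein-coding, and transcripts under a mean share of 1% are left out. The leading listed transcripts of Myc and Mxd4 are the same in each library, with Myc-201 and Myc-205, which are the same RNA, drawn apart. Mlx-203 goes from 5.27% in replicate 1 to 59.1% in replicate 3, and Max-202 is lowest, at 12.8%, in replicate 3.

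Grouped by role, the repressor genes held the largest share of network TPM in the main table and MYC the largest in older-annotation counts per coding base. In the main table the 5 repressors took 37.9%, 42.5% and 37.2% of the summed TPM, the MYC paralogs 26.2%, 26.7% and 33.3%, Max 20.5%, 12.5% and 20.3%, and Mlx 15.4%, 18.3% and 9.32%. Repressor TPM exceeded Myc in all 3 libraries, with ratios of 1.45, 1.59 and 1.12. In older-annotation counts per coding base the ratio turned, to 0.397, 0.431 and 0.389, and the MYC paralogs held 43.5% ± 3.73 (SD, n = 3) against 17.6% ± 1.81 for the repressors. Mxd4 carried this change: without it, repressors over Myc were 0.377 ± 0.05 in the main table and 0.309 ± 0.0464 in the older-annotation counts. The second quantification kept the main order, with 35.3% ± 3.801 for the repressors and 28.1% ± 2.65 for the MYC paralogs.

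**Figure D4:**
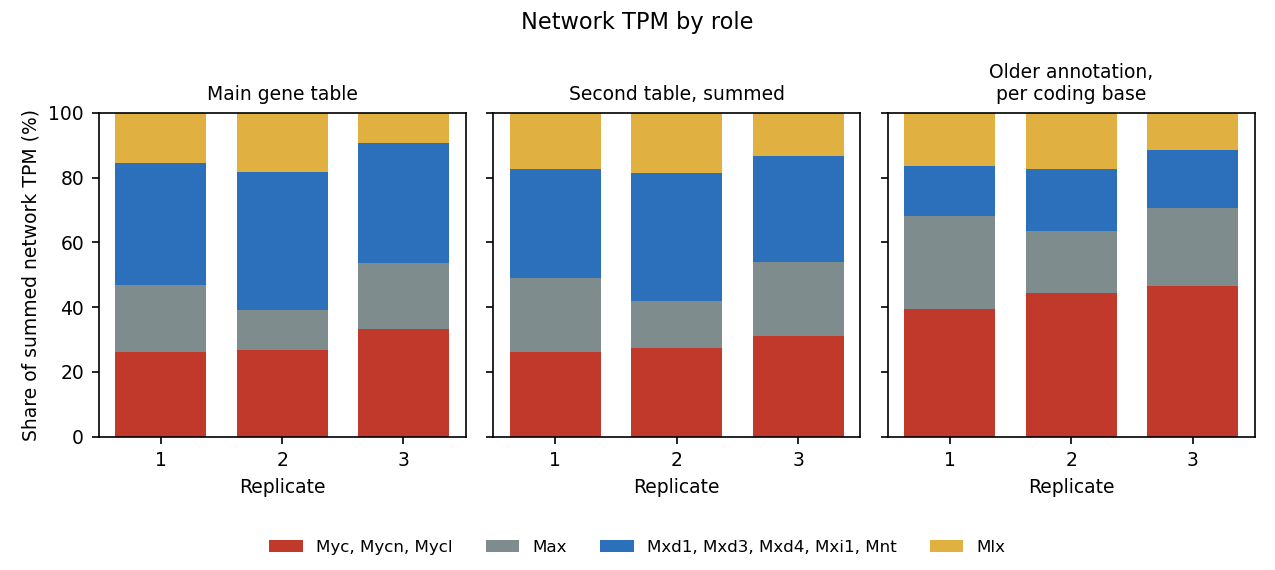
Composition of the network by role, with the replicate on the x axis and the share of summed network TPM in percent on the y axis, for 3 deposited quantifications. Repressor genes (blue) take 37.2% to 42.5% in the main table and 15.6% to 19.1% in older-annotation counts per coding base, where the MYC paralogs (red) take 39.3% to 46.6%.

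Most of the network differed between the libraries beyond sampling noise, as most genes did. Of the 8 members averaging 10 counts or more, 6 varied (Max, Mxd1, Mxd3, Mxd4, Mnt and Mlx), beside 65.4% of the 12997 genes tested. Among members averaging 100 counts or more, 6 of 7 varied, beside 76.3% of such genes, and the share was 91.7% at 1000 counts or more, where Myc and Mxd4 lie. The counts of members are near that background. Under the trended dispersion of edgeR, which adds the usual spread between these libraries to the sampling noise, 0 of 8 members varied, beside 1.18% of genes, and 0 had an unadjusted p under 0.05, beside 5.19% of genes. The dispersion itself comes from these libraries. The p-values, like the SDs, measure only the spread between these 3 libraries, which are labelled technical replicates; which preparation steps they share is not stated.

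**Figure D5:**
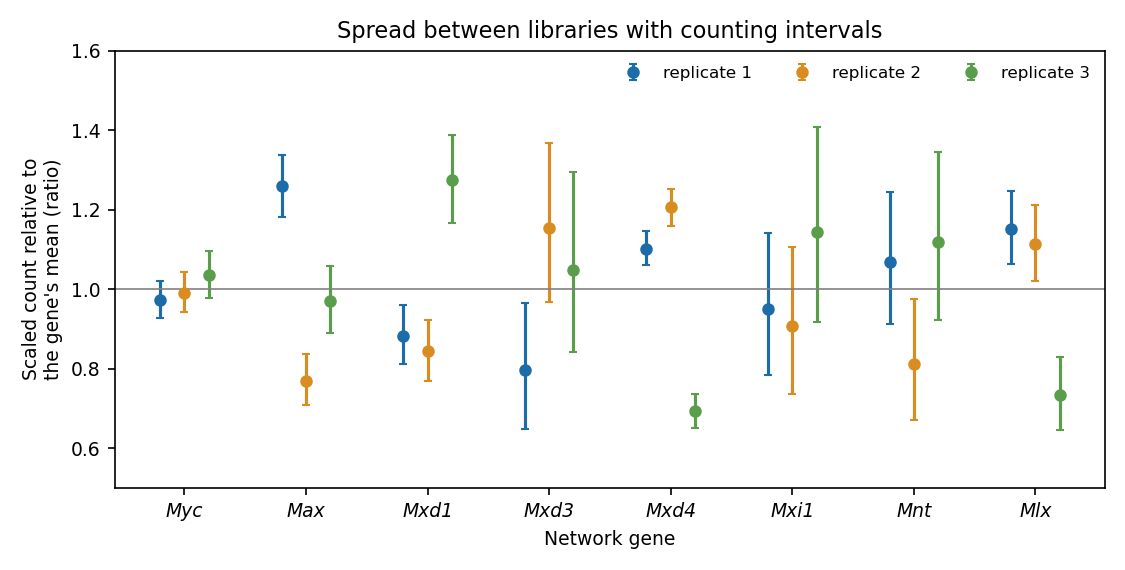
TMM-scaled count of each detected member divided by its mean over the 3 libraries (ratio, y axis, which does not start at 0), by gene on the x axis; points are libraries and bars are exact 95% Poisson intervals, which cover counting error only. The 3 Myc intervals overlap, whereas replicate 3 stands apart from the others for Mxd1 (high) and Mlx (low). For Max and for Mxd4 (replicate 3 lowest) all 3 libraries are apart from one another.

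The cells behind these values carried the markers of regulatory T cells. All 8 Treg identity genes and all 6 T cell genes listed were detected, beside 45.3% of all protein-coding genes. The summed Treg identity TPM was 2994, 3408 and 2424, and 6 of the 8 genes were lowest in replicate 3, whereas Foxp3 (29.5, 28.7 and 49.8 TPM) and Ctla4 were highest there. The libraries also differed in markers of other cells. The summed TPM of 9 B cell genes, 8 of them detected and none at 0 in all libraries, was 1800, 1491 and 3122. The height of replicate 3 came from the antibody light chain gene Igkc alone, and without it the sum was 1055, 1208 and 907.1, lowest in replicate 3. For 6 plasma cell genes (5 detected) the sum was 127, 87.4 and 187, highest in replicate 3. For the 6 T cell genes it was 7890, 7850 and 5027, and all 6 were lowest in replicate 3. For 6 erythroid genes it was 798, 5.30 and 23.4, highest in replicate 1 where Max was highest. Myeloid sums (7 genes) were 9.40 to 25.3, CD8 T or NK sums 20.99 to 24.7 and dendritic cell sums 2.60 to 3.50. The part of these cells in the values of Max, Mxd1, Mxd4 and Mlx was not tested. In bulk RNA, fewer cells of a type and less RNA per cell cannot be told apart.

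Among the other genes of the network, Mga and Mlxip were detected. Mga, which encodes a giant MAX partner of a repressive complex, was at 23.9, 25.7 and 24.3 TPM. Mlxip, which encodes the MLX partner also called MondoA, was at 13.8, 16.7 and 34.2 TPM, highest in replicate 3, and varied under the trended dispersion of edgeR too (adjusted p = 0.0356). Its relative Mlxipl (ChREBP) and the retrogene Mycs had means of 0.103 and 0.0200 TPM. Both detected genes varied beyond sampling noise, as 65.4% of all genes tested did.

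Of 6 genes known as targets of MLX with its partners, 4 were detected, beside 45.3% of all protein-coding genes. In this list 5 of 5 tested varied between libraries, beside 65.4% of all genes tested. Txnip, which encodes a brake on glucose uptake and is the best known of them, was at 216, 288 and 742 TPM and varied under the trended dispersion of edgeR (adjusted p = 6.51e-05). Mlxip and Txnip were thus highest, and Mlx lowest, in replicate 3, but the list did not move one way. Klf10 (46.9, 55.1 and 18.8 TPM) and Arrdc3 (6.72, 9.46 and 3.84 TPM) were lowest there, as was the list's median log2(TPM + 1), at 4.26, 4.60 and 3.29. Tkt, of the pentose phosphate pathway, was at 208, 245 and 177 TPM. Arrdc4, a relative of Txnip, was at 0.87, 1.52 and 3.73 TPM, and the liver-type pyruvate kinase gene Pklr had a mean of 0.0800 TPM.

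Genes for the machinery around the network were broadly present. Their detection is to be read against the 45.3% of all protein-coding genes that were detected. Of 9 corepressor genes that MXD and MNT recruit, 8 were detected and 6 of 8 tested varied between libraries, again beside 65.4% of all genes tested and 76.3% of those averaging 100 counts or more, the shares against which the counts that follow are to be read. Rbbp4 and Hdac1, a histone-binding subunit and a deacetylase, were highest at 243.9 ± 1.501 and 208.7 ± 46.3 TPM (SD, n = 3), and Hdac2 and Sap30 lowest at 7.82 ± 2.34 and 0.897 ± 0.692 TPM. All 11 coactivator and partner genes of MYC were detected and 8 of 11 varied. They ran from the chromatin remodeller gene Smarcb1, at 85.4 ± 27.6 TPM, and the scaffold gene Trrap, at 63.3 ± 7.89 TPM, down to the MYC partner gene Zbtb17 (MIZ1), at 13.5 ± 1.23 TPM, and the acetyltransferase gene Kat2a, at 10.6 ± 0.169 TPM. Of 14 genes that control MYC protein turnover, 13 were detected and 12 of 13 tested varied (65.4% of all genes). The kinase gene Pim1 led at 271.5 ± 46.9 TPM, followed by the ubiquitin ligase gene Huwe1 at 40.5 ± 6.14 TPM, and the F-box genes Skp2 and Fbxl16 were lowest at 6.08 ± 1.21 and 0.0767 ± 0.0802 TPM. None of these lists had a member that varied under the trended dispersion of edgeR, either adjusted or at an unadjusted p under 0.05.

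The listed MYC targets were all detected, over a wide range of levels, beside 45.3% of all protein-coding genes. Their medians below stand beside 4.42 ± 0.07 (SD, n = 3) for all detected protein-coding genes. All 20 genes of ribosome making and nucleotide supply were present, their median log2(TPM + 1) being 5.67 ± 0.09 (SD, n = 3), and 15 of 20 varied beyond sampling noise. Beside this stand 65.4% of all genes tested, 76.3% of those averaging 100 counts or more and 91.7% at 1000 or more. The nucleolar protein genes Npm1 and Ncl were highest at 1187 ± 70.6 and 328.3 ± 49.5 TPM. The spermidine synthase gene Srm and the ribosome assembly gene Rrs1 were lowest at 5.76 ± 0.552 and 2.27 ± 0.267 TPM. All 16 genes of metabolism and growth were present as well, with a median of 6.24 ± 0.15, and 15 of 16 varied, beside the same shares. Ldha, for lactate dehydrogenase, was at 991 ± 84.0 TPM and the cyclin gene Ccnd2 at 597 ± 149 TPM, while Hk2, for hexokinase, and Slc7a5, an amino acid transporter gene, were at 4.83 ± 1.96 and 3.00 ± 0.991 TPM. Under the trended dispersion of edgeR 0 genes of either list varied, and 0 and 1 had an unadjusted p under 0.05. With no control group, no direction can be given for these targets.

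The genes whose levels followed Myc most closely over the 3 libraries were Prelid1, 2610001J05Rik and Rnpep, of 8047 protein-coding genes averaging 100 counts or more. Likeness was the Euclidean distance between values of log2(TPM + 1), each centred on its gene's mean, and was 0.00246, 0.00314 and 0.00429. Within a wider limit of 0.1 lay 583 genes. Myc itself did not differ between libraries by more than sampling noise (adjusted p = 0.323 by chi-square). Likeness to its pattern therefore cannot be told apart from counting error. Prelid1 is the gene that overlaps Mxd3.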

How the data were processed

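PolyA RNA-seq was read from 3 libraries labelled as 1 biological replicate. Per the labels, RNA was sheared to fragments of 100 to 300 bp. Per the file headers, the main tables hold expected counts, TPM, the percent of each gene's TPM per transcript and posterior SDs on mm10 and annotation M21. The second deposited transcript table holds estimated counts and TPM from read files. The third, deposited on annotation M4, holds whole-number counts per gene. No label or header names the programs. Median M4-to-main count ratios were 0.434 for genes with a coding share under 0.3 and 1.61 for shares of 0.8 to 1, so M4 counts were taken per coding base. That they count coding reads is an inference. The M4 totals of 11055692, 10026961 and 6957873 counts lay above the main totals, and the reason was not tested.

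Depth was 10981924, 9700630 and 6667391 expected counts. Symbols came from the second transcript table (55450 of 55536 genes). Of 81881 entries, 26345 named no mouse gene and were left out, with 0.0873% to 0.166% of counts. Of 22457 M4 genes, 98.8% matched. Expected counts were rounded for tests. Genes averaging 10 counts or more were tested by chi-square (2 degrees of freedom) with TMM scaling from edgeR 4.0.16 (R 4.3.3), with Benjamini-Hochberg adjustment over all genes and a threshold of 0.05. The chi-square test was tried on simulated counts that held sampling noise only, without the further spread seen between these libraries. Alternatives were DESeq2 1.42.0 size factors, total scaling, no filter, trended dispersion (common dispersion 0.0706), the other quantifications and leaving out each library. Highest-to-lowest ratios carry exact 95% binomial intervals, and floors use 3 counts. Both cover counting error only, since no molecular identifiers are named in the labels. The intervals treat the highest and lowest library as fixed in advance, although they were picked by their values. They therefore cover equal levels less often than 95% of the time.

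Named were all members, their leading transcript and others with a mean share of at least 10%, the 3 genes most like Myc, and from each pathway list the 2 highest and 2 lowest genes and any that varied under the trended dispersion. Max-206, Mlx-206, Igkc, Ctla4, Klf10 and Arrdc3 were named after their values were seen. The members and lists were chosen with earlier results of these data known. Lists were not tested as sets. Mxd2, on the list of other network genes, is an older name of Mxi1 and was not counted again.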

Additional observations from a re-analysis of the deposited data

How the results depend on the processing

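No paired analysis was possible because the 3 libraries form 1 group. The count of genes varying beyond sampling noise was 8496, and 153 under the trended dispersion of edgeR. For the members the count was 6, and 0 under the trended dispersion. Leaving out each library gave 4224 to 6953 genes and 3 to 5 members, in both cases fewest without replicate 3, whose removal lost Mxd1, Mnt and Mlx. The number of detected members, 8, was 6 at a TPM limit of 5. The MYC paralogs' share of network TPM, 28.7%, was 43.5% in M4 counts per coding base and 26.5% to 29.99% leaving out each library. The median log2(TPM + 1) of the members, 4.00, was 4.85 for members with a mean TPM of at least 1, 3.25 in the second quantification and 3.88 to 4.15 leaving out each library. Of 160 values for single members, 125 stayed within their spread or on their side of the threshold and 0 reversed. Mean TPM moved beyond the SD in 7 of 8 members in the second quantification, where the median ratio to the main table over all detected protein-coding genes was 0.585, and in 6 of 8 in M4 counts per coding base, where it was 1.31. It moved in 0 of 8 under other scalings or leaving out a library. The causes were not tested. Depth limits Mxi1, Mnt and Mxd3 most, each with about 100 counts per library.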
